A study of Mus musculus with 8 samples.

Results

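The genes that carry glucose from the cell membrane to the committed step of glycolysis were followed in CD8+ T cells under persistent TCR stimulation. They are 10 genes chosen by symbol, and each occurs once among the 22520 rows of the deposited table. They encode the glucose transporters GLUT1 (*Slc2a1*) and GLUT3 (*Slc2a3*), the hexokinases (*Hk1*, *Hk2*), glucose 6-phosphate isomerase (*Gpi1*), the 3 isozymes of phosphofructokinase (*Pfkl*, *Pfkm*, *Pfkp*), and 2 enzymes that set the level of its activator (*Pfkfb3*, *Pfkfb4*). Splenic CD8+ T cells of wild-type mice were purified by negative magnetic selection and stimulated with anti-CD3 and anti-CD28 antibodies and IL-2 for 6 days. The methods list C57BL/6J males aged 6 to 8 weeks, without saying which animals gave these spleens. From day 3, the medium held either 40 µM diisopropylamine dichloroacetate (DADA), an inhibitor of pyruvate dehydrogenase kinase, or the solvent DMSO alone, and bulk RNA-seq was performed on 4 libraries of each group. The labels call these biological replicates but do not say whether they came from separate animals, so p-values measure the spread between the libraries, part of which may be technical. The comparison of the 2 groups asks how DADA changed the transcripts of these enzymes.

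In resting T cells glucose uptake is low. Activation through the T cell receptor and CD28 brings glucose transporters to the surface and raises transcripts of glycolytic enzymes, and MYC and the hypoxia-inducible factor HIF-1 are known inducers of this program. Glucose enters by facilitated diffusion, hexokinase traps it as glucose 6-phosphate, the isomerase turns this into fructose 6-phosphate, and phosphofructokinase adds the second phosphate in a step that is practically irreversible. Several isozymes serve most of these steps and differ in regulation and tissue, so a step can keep its level while its isozymes exchange.

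All 10 genes differed between DADA-treated and DMSO-treated CD8+ T cells, but not in one direction. *Slc2a1*, *Hk1* and *Hk2* fell with DADA, and *Slc2a3*, *Gpi1*, *Pfkl*, *Pfkm*, *Pfkp*, *Pfkfb3* and *Pfkfb4* rose. Thus, of the transporters one fell and the other rose, both hexokinases fell, and every gene from the isomerase onwards rose. These calls are adjusted p-values under 0.05 in limma on log2(FPKM + 1), where FPKM counts fragments relative to transcript length and to the mapped total of the library. Differences, DADA minus DMSO, are given on that scale as log2FC with the standard error (SE) of the fit. The background was high. Of the 10666 genes tested, 66.2% passed this threshold, with 30.9% higher and 35.3% lower in DADA-treated cells, so a call for any 1 gene is common in these libraries. Of the 10 genes, 7 differed by at least 1 on the log2 scale, 4 upwards and 3 downwards, whereas 4.03% of all genes tested were called with a difference of that size. This count rests on small margins, since *Gpi1* (1.004) was just counted and *Pfkp* (0.997) was just left out. The median size of the difference was 1.09 for the 10 genes and 0.21 for all genes tested. In none of the 10 genes did a DMSO value reach into the range of the DADA values, and the same was true of 60.6% of all genes tested. Each gene was above 1 FPKM in all 8 libraries, so none entered the test through 1 group only. In bulk samples, fewer cells of a type and less RNA per cell cannot be told apart.

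**Figure D1:**
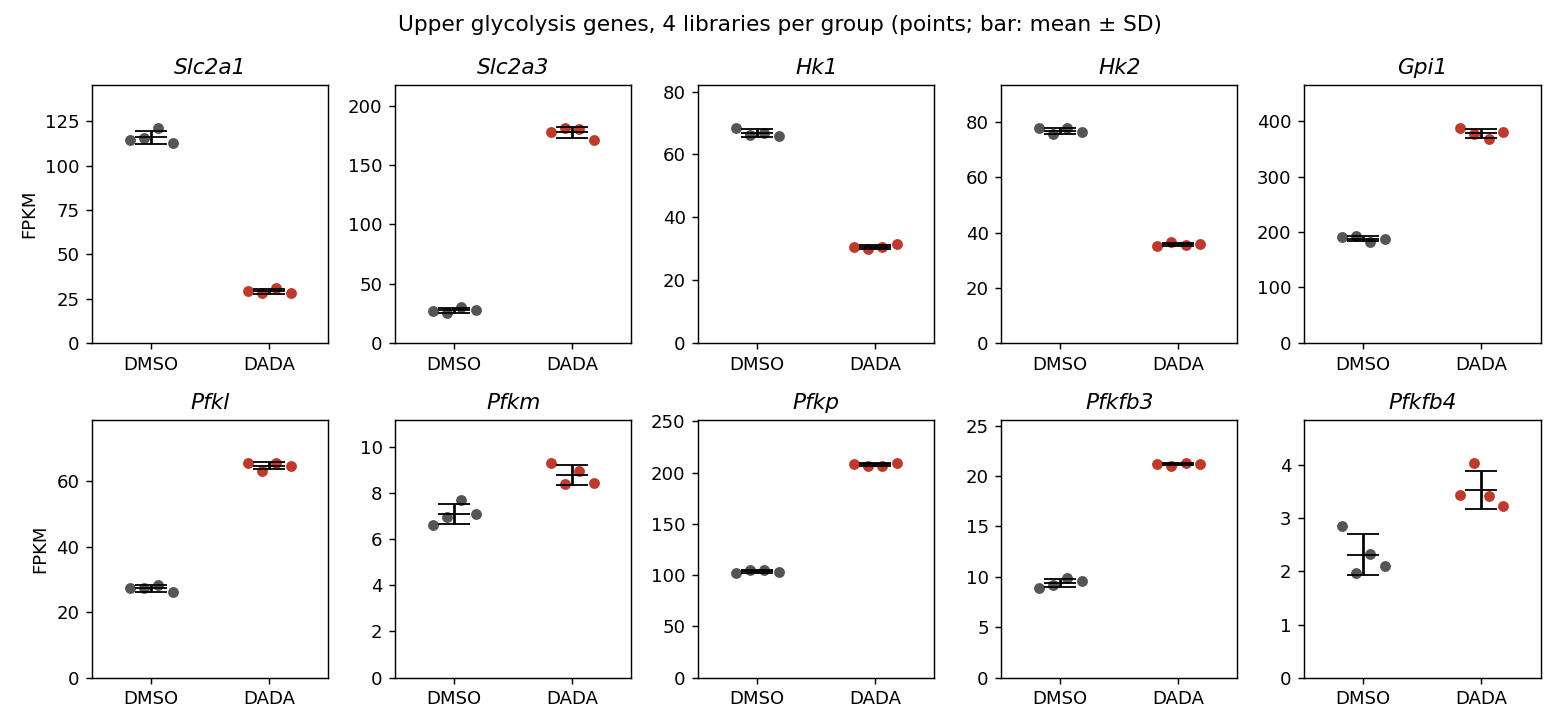
FPKM (y axis, from 0) of the 10 upper glycolysis genes in the 4 DMSO and 4 DADA libraries, with points for libraries and bars for the mean ± SD. The groups do not overlap in any panel: *Slc2a1*, *Hk1* and *Hk2* are lower with DADA and the other 7 genes are higher, *Pfkm* and *Pfkfb4* by the least.

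The FPKM of a library summed to between 438299 and 456939, and the table holds no read counts. From the steps between low values, the depth was estimated at 13800000 to 16300000 fragments under DMSO and 15400000 to 18800000 fragments under DADA. These are rough estimates, since 35.2% to 40.6% of the low values lay within 0.1 of a whole fragment, where chance gives 20%, and 5 libraries fitted slightly better at about 2 times that depth. Markers of CD8 T cells were abundant and were higher after DADA; their 7 transcripts summed to 1026 to 1058 FPKM under DMSO and 1268 to 1302 FPKM under DADA. Among 5 markers of macrophages and monocytes, *Csf1r*, *Adgre1* and *C1qa* were listed at 0 in every library, and only *Cd68* reached 1 FPKM. The sum of the 5 moved with treatment, from 3.43 to 3.96 FPKM under DMSO to 5.09 to 5.55 FPKM under DADA. The 4 neutrophil markers summed to at most 0.313 FPKM, the 2 NK cell markers to at most 0.336 FPKM and the 4 erythroid markers to at most 0.377 FPKM. The 3 CD4 T cell markers summed to 15.2 to 17.2 FPKM, with only *Zbtb7b* above 1 FPKM. The part of these shifts in the results was not tested.

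To show what lies next to these genes, the 250 bases before the transcription start were read for 9 of the 10 from RefSeq (build GRCm38.p6). *Slc2a3* had no entry. Windows of 2 genes that fell, *Slc2a1* (chr4:119108495-119108744, plus strand) and *Hk2* (chr6:82774455-82774704, minus strand), and of 2 that rose, *Pfkl* (chr10:78009808-78010057, minus strand) and *Pfkfb3* (chr2:11553930-11554179, minus strand), are given 5′ to 3′ along the gene and were picked after the values were seen. Capitals mark ACGTG and GCGTG, the core letters of sites that HIF is known to bind, on either strand. The reverse strand reads as CACGT and CACGC.
Slc2a1: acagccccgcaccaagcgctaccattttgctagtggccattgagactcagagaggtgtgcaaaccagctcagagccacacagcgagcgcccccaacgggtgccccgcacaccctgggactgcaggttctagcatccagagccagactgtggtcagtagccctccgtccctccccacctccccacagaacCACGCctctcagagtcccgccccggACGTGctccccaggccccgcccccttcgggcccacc
Hk2: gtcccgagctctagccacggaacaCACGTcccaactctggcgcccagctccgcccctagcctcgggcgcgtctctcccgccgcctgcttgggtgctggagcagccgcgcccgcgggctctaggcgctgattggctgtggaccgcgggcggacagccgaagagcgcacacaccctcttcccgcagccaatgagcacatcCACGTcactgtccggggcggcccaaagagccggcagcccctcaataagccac
Pfkl: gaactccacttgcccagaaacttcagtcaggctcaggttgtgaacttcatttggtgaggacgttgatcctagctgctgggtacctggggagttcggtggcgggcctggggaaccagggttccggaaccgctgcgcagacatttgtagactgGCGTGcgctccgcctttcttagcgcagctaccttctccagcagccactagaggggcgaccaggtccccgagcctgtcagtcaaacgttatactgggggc
Pfkfb3: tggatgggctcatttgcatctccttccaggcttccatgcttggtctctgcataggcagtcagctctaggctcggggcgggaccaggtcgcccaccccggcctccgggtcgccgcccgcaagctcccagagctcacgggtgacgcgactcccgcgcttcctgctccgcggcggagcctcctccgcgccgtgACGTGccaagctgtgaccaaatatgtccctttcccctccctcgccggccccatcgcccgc

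In *Slc2a1* the forward ACGTG began 36 bases before the start, and in *Pfkfb3* it began 60 bases before it. *Hk2* held 2 matches on the reverse strand, which began 226 and 52 bases before the start, and *Pfkl* held 1 GCGTG, 99 bases before it. ACGTG was present in at least 1 window of 4 of the 9 genes, *Slc2a1*, *Hk2*, *Pfkm* and *Pfkfb3*, against 18.5% of the 27025 genes in the table. GCGTG was present in 7 of the 9, all but *Hk2* and *Gpi1*, against 30.9%. The E-box CACGTG, a site known for MYC, contains ACGTG on both strands and occurred in 1 window each of *Pfkm* and *Pfkfb3*, against 6.86% of genes. Neither core was found in the window of *Gpi1*. A gene with more windows has more room for a match, and the 9 genes had 14 windows, whereas the 27025 had 32851. By window, ACGTG was present in 6 of 14 against 16.6%, and GCGTG in 8 of 14 against 28.2%. The letters therefore stood before genes that fell and genes that rose. A match is a description of the sequence, and which start the cells used was not measured.

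The transporters showed the largest changes of the set, in opposite directions. *Slc2a1* (ENSMUSG00000028645), the transporter best known for its rise on T cell activation, was at 115, 116, 121 and 113 FPKM under DMSO and fell to 29.1, 28.2, 30.9 and 28.3 FPKM under DADA. Every DADA library was thus far below every DMSO library. Its mean fell from 116 ± 3.66 to 29.1 ± 1.27 FPKM (SD, n = 4), log2FC -1.96 (SE 0.0350; limma, adjusted p = 4.75e-11). *Slc2a3* (ENSMUSG00000003153), a transporter of high glucose affinity that is abundant in neurons and lymphocytes, was at 26.9, 25.4, 30.7 and 27.4 FPKM under DMSO, then at 177, 181, 180.4 and 171 FPKM under DADA. The highest DMSO library stayed well below the lowest DADA library. Its mean rose from 27.6 ± 2.23 to 178 ± 4.52 FPKM, which is 6.44 times as high, and its log2FC was 2.65 (SE 0.0494; limma, adjusted p = 5.72e-11).

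Because FPKM is scaled to transcript length, the levels of isozymes can be set side by side. With DMSO, *Slc2a1* made up 80.8% ± 0.930 (SD, n = 4) of the summed FPKM of the pair, and with DADA 14.1% ± 0.482. The transcript of GLUT1 was 3.96 to 4.56 times as abundant as that of GLUT3 in the DMSO libraries, and the transcript of GLUT3 was 5.83 to 6.43 times as abundant as that of GLUT1 in the DADA libraries. The exchange left the sum higher: 144 ± 5.53 FPKM under DMSO and 207 ± 5.18 FPKM under DADA, 1.44 times as high and without overlap of the libraries. Of the other 2 transporters with a call, *Slc2a8* was at 2.85 ± 0.361 FPKM under DMSO and 4.87 ± 0.322 FPKM under DADA (log2FC 0.61, limma, adjusted p = 4.87e-05). *Slc2a6* was at 10.1 ± 0.717 and 8.63 ± 0.721 FPKM with overlapping libraries (-0.21, limma, adjusted p = 0.0174). Both were minor beside the GLUT1 and GLUT3 transcripts.

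**Figure D2:**
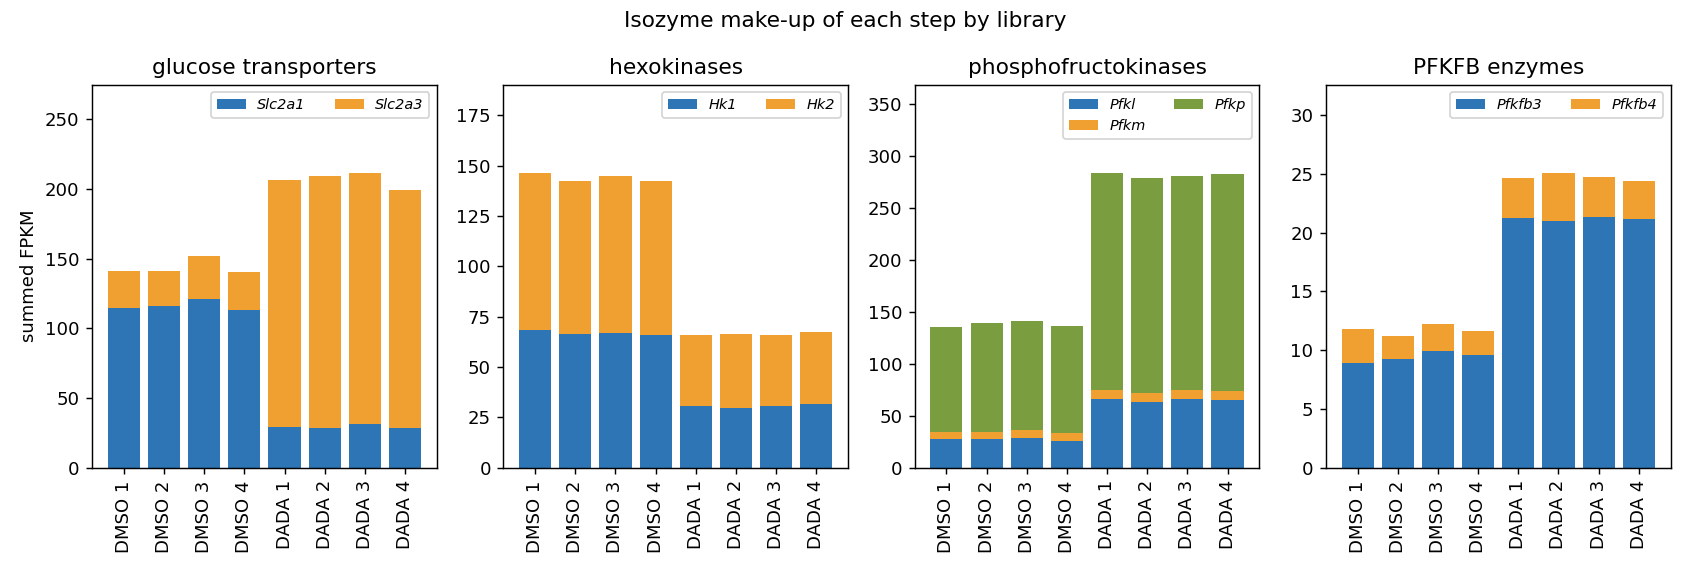
Summed FPKM (y axis, from 0) of the isozymes of each step in the 8 libraries, with 1 bar per library and colours for genes. With DADA, *Slc2a3* replaces *Slc2a1* as the larger transporter, the hexokinase bars shrink with about the same make-up, and the phosphofructokinase and PFKFB bars grow to about 2 times their height.

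The hexokinases, which phosphorylate glucose on entry and can sit on the outer mitochondrial membrane, fell together. *Hk1* (ENSMUSG00000037012), the widely expressed isozyme, was at 68.5, 66.3, 66.8 and 65.8 FPKM under DMSO, then at 30.7, 29.8, 30.4 and 31.5 FPKM under DADA. *Hk2* (ENSMUSG00000000628), the inducible isozyme, was at 77.8, 75.8, 77.9 and 76.4 FPKM under DMSO, then at 35.3, 36.6, 35.5 and 35.8 FPKM under DADA. In both genes the libraries of a group lay within a few FPKM of each other, far closer than the groups. The log2 fold change was -1.10 for *Hk1* (SE 0.0253, limma, adjusted p = 2.23e-10) and -1.08 for *Hk2* (SE 0.0223, limma, adjusted p = 1.07e-10), and the 95% intervals of -1.16 to -1.05 and -1.13 to -1.03 overlapped. The make-up of the step hardly moved. *Hk2* gave 53.5% ± 0.321 of the hexokinase FPKM under DMSO and 53.9% ± 0.821 with DADA, and here the libraries of the groups overlapped (53.2% to 53.9% and 53.2% to 55.1%). The sum of both fell from 144 ± 2.03 to 66.4 ± 0.668 FPKM, so that DMSO-treated cells held 2.17 times the hexokinase FPKM of DADA-treated cells. No other gene of glucose phosphorylation was called higher. *Hk3* was too low for the test, at no more than 0.134 FPKM, and *Hkdc1* was listed at 0 throughout. *Adpgk*, whose enzyme phosphorylates glucose with ADP, also fell, from 20.1 ± 0.723 to 14.3 ± 1.10 FPKM, log2FC -0.46 (limma, adjusted p = 2.28e-05).

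*Gpi1* (ENSMUSG00000036427), the only gene of the isomerase step, was the most abundant of the 10 genes in both groups. It was at 190.2, 193, 182 and 188 FPKM under DMSO, then at 388, 377, 368 and 381 FPKM under DADA. All DADA libraries lay well above all DMSO libraries. The mean was 188 ± 4.95 FPKM and 378 ± 8.33 FPKM, and the log2FC 1.00 (SE 0.0255; limma, adjusted p = 4.59e-10).

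Of the phosphofructokinases, which form tetramers and catalyse the committed step, the platelet-type isozyme *Pfkp* (ENSMUSG00000021196) predominated. It was at 102, 105, 105 and 103 FPKM under DMSO, then at 209, 207, 207 and 209.6 FPKM under DADA, so the libraries of a group were almost level. Its log2FC was 1.00 (SE 0.0193; limma, adjusted p = 7.54e-11). *Pfkl* (ENSMUSG00000020277), the liver-type isozyme, was at 27.3, 27.4, 28.4 and 26.0 FPKM under DMSO, then at 65.5, 63.3, 65.7 and 64.8 FPKM under DADA, log2FC 1.22 (SE 0.0298; limma, adjusted p = 3.53e-10). The 95% intervals of 0.95 to 1.04 for *Pfkp* and 1.15 to 1.29 for *Pfkl* did not overlap. *Pfkm* (ENSMUSG00000033065), the muscle-type isozyme, was the least abundant and moved the least, at 6.61, 6.97, 7.70 and 7.08 FPKM under DMSO, then at 9.31, 8.37, 8.95 and 8.45 FPKM under DADA. Its highest DMSO value and lowest DADA value were close. The log2 fold change was 0.27, with a 95% interval of 0.16 to 0.39 (limma, adjusted p = 9.87e-04). The sum of the 3 isozymes rose from 138 ± 2.67 to 282 ± 2.19 FPKM, 2.04 times as high. *Pfkp* remained the main isozyme, with 75.1% ± 0.520 of the sum with DMSO and 73.9% ± 0.399 with DADA. The share of *Pfkl* was 19.8% ± 0.452 and 23.0% ± 0.280, and that of *Pfkm* 5.13% ± 0.254 and 3.12% ± 0.144. None of these 3 shares overlapped between the groups, although each moved by only a few percentage points.

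*Pfkfb3* and *Pfkfb4* encode enzymes with a kinase and a phosphatase activity that make and remove the sugar bisphosphate that activates phosphofructokinase. In *Pfkfb3* the kinase is known to dominate. *Pfkfb3* (ENSMUSG00000026773) was at 8.93, 9.23, 9.93 and 9.55 FPKM under DMSO, then at 21.2, 21.0, 21.3 and 21.1 FPKM under DADA, so its DADA libraries were nearly identical. Its log2FC was 1.09 (SE 0.0356; limma, adjusted p = 2.79e-09). *Pfkfb4* (ENSMUSG00000025648) was the lowest of the 10 genes and the most variable, at 2.86, 1.97, 2.32 and 2.10 FPKM under DMSO, then at 3.43, 4.05, 3.42 and 3.23 FPKM under DADA. The SD was 16.8% of the mean under DMSO and 10.0% under DADA, against at most 8.07% for any other of the 10 genes. The highest DMSO library and the lowest DADA library were close, and the log2FC was 0.46 with a 95% interval of 0.26 to 0.65 (limma, adjusted p = 0.00116). At so low a level the log2(FPKM + 1) scale understates the change, and with a pseudocount of 0.1 it was 0.60. Of the other tested genes of this switch, none was called higher. *Pfkfb1* fell from 5.28 ± 0.425 to 3.93 ± 0.333 FPKM (log2FC -0.35, limma, adjusted p = 0.00101), as did *Tigar*, a phosphatase of the same sugar bisphosphate, from 7.52 ± 0.299 to 6.29 ± 0.216 FPKM (-0.22, adjusted p = 9.96e-04). *Pfkfb2* was at 2.18 ± 0.549 and 2.47 ± 0.135 FPKM and was not called, with a 95% interval of -0.11 to 0.39 for its log2FC (limma, adjusted p = 0.288).

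**Figure D3:**
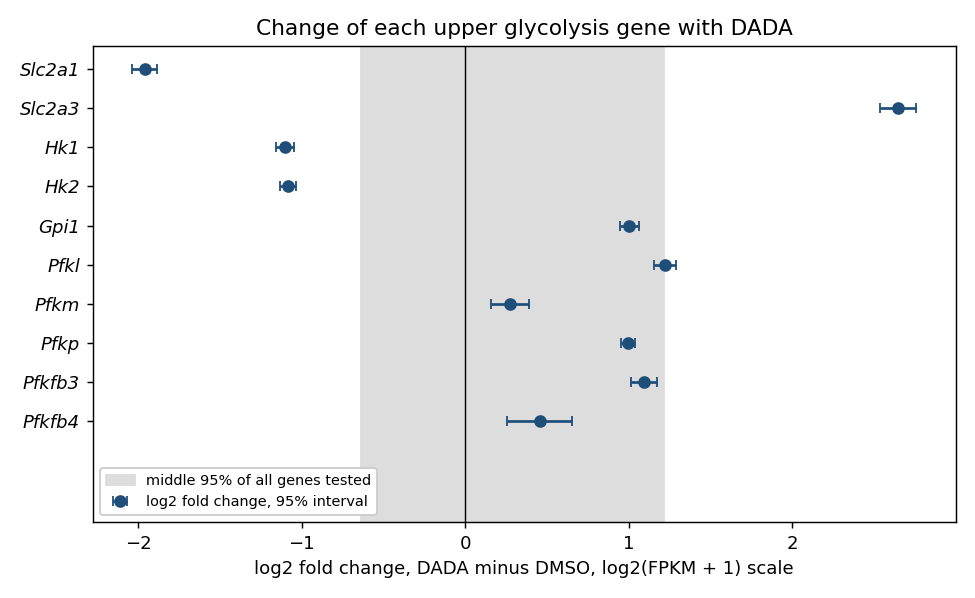
Log2 fold change, DADA minus DMSO, on the log2(FPKM + 1) scale (x axis) for each of the 10 genes, with 95% intervals from limma; the grey band holds the middle 95% of all genes tested, from -0.64 to 1.21. *Slc2a1*, *Hk1* and *Hk2* lie left of the band and *Slc2a3* far to its right, whereas *Pfkl* lies at its upper edge and the other rising genes inside it.

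Set in order of level, *Gpi1*, *Slc2a1*, *Pfkp*, *Hk2* and *Hk1* led in DMSO-treated cells, and *Gpi1*, *Pfkp*, *Slc2a3*, *Pfkl* and *Hk2* in DADA-treated cells. Neighbours in that order overlapped in 2 places: *Slc2a3* and *Pfkl* with DMSO, at 27.6 ± 2.23 and 27.3 ± 0.984 FPKM, and *Hk1* and *Slc2a1* with DADA, at 30.6 ± 0.708 and 29.1 ± 1.27 FPKM. The balance between steps changed as well. The phosphofructokinase FPKM was 0.928 to 0.980 times the hexokinase FPKM in the DMSO libraries and 4.20 to 4.30 times in the DADA libraries. For the transporter sum against the hexokinase sum, these ratios were 0.968 to 1.05 and 2.96 to 3.21. Such ratios compare transcripts per length and carry no information on enzyme amount or flux.

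For each of the 10 genes, every one of the 70 ways to assign 8 libraries was also enumerated. This exact permutation test (two-sided) gave p = 0.0286, the smallest value that 4 against 4 libraries allow. Groups without overlap always give this value, so it repeats the separation stated above. Reads of overlapping genes could touch some of these values, because use of the strand in counting is not stated. In the GENCODE M21 annotation, exons of *Pfkp* share 748 bases with *Pitrm1* on the opposite strand, which was at 27.1 to 28.2 FPKM under DMSO and 16.9 to 18.1 FPKM under DADA, the opposite direction to *Pfkp*. Exons of *Pfkm* share 18 bases with *Senp1*, at 26.5 to 27.9 and 19.6 to 21.1 FPKM. *Slc2a1*, *Hk1*, *Gpi1* and *Pfkm* also share exon bases with noncoding genes that have no row among the deposited values. The part of these neighbours in the values was not tested.

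The rest of the pathway was described with lists of other genes. In lower glycolysis, from aldolase to pyruvate kinase, 11 of 12 genes were tested, of which 7 were higher, 2 lower and 2 not called. Of all genes tested, 66.2% were called, 30.9% higher and 35.3% lower. The median log2 fold change was 0.97, beside 0.73 for the 10 upper genes and -0.02 for all genes tested. *Aldoc*, an aldolase, rose from 2.11 ± 0.101 to 20.1 ± 0.567 FPKM, log2FC 2.76 (limma, adjusted p = 1.35e-11). *Gapdh* had the next largest difference, 1.64 (limma, adjusted p = 0.0174, exact permutation p = 0.0857), but its libraries overlapped. They were at 26.2 to 145 FPKM under DMSO and 119 to 385 FPKM under DADA. Whether reads of near-identical copies entered the *Gapdh* value was not tested. The mean FPKM also rose in *Aldoa* (774 to 1622), *Tpi1* (336 to 831), *Pgk1* (777 to 1528), *Pgam1* (211 to 434) and *Eno1* (1027 to 1974). In none of these did the libraries of the groups overlap. *Pkm*, the pyruvate kinase gene at the end of the pathway, went the other way, from 1553 ± 23.4 to 614 ± 12.1 FPKM (-1.34, limma, adjusted p = 3.08e-11), and *Eno3* was lower by a small amount (-0.15, adjusted p = 0.00757), with overlapping libraries.

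Genes that lead glucose 6-phosphate and fructose 6-phosphate elsewhere changed in both directions. Of 15 tested of 16, 3 were higher, 7 lower and 5 not called, with a median of -0.07, a share of calls near the 66.2% of all genes tested. *Pgm1*, a phosphoglucomutase on the way to glycogen, rose from 27.8 ± 0.779 to 102 ± 1.52 FPKM (log2FC 1.84, limma, adjusted p = 1.01e-11), and *Gys1*, glycogen synthase, from 17.8 ± 0.675 to 40.8 ± 0.988 FPKM (1.15, adjusted p = 1.12e-09). *G6pdx*, which opens the pentose phosphate pathway, fell from 45.5 ± 0.969 to 27.6 ± 1.85 FPKM (-0.70, limma, adjusted p = 3.36e-07), and *Pgls*, its next enzyme, from 62.7 ± 3.31 to 48.9 ± 3.32 FPKM (-0.36, adjusted p = 1.60e-04). Of the 16 other hexose transporters and glucose-phosphorylating genes, 4 were tested, with 1 higher, 2 lower and 1 not called (median -0.12), and 5 were listed at 0 in every library. Of the 5 other genes of the fructose bisphosphate switch, 3 were tested, with 0 higher, 2 lower and 1 not called (median -0.22).

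Among 20 regulators of glucose uptake and glycolytic genes, 16 were tested and 10 rose, 0 fell and 6 were not called, with a median of 0.17. Of all genes tested, 66.2% were called, 30.9% higher and 35.3% lower. The share called was thus near that of all genes, but all 10 calls were upwards. The list mixes inducers with genes that limit them or limit glucose uptake, so a shared direction has no single meaning. The largest differences were in *Egln3*, from 17.4 ± 0.576 to 123 ± 2.26 FPKM (log2FC 2.75, limma, adjusted p = 2.68e-12), and *Egln1*, from 21.8 ± 0.567 to 70.3 ± 1.40 FPKM (1.65, adjusted p = 3.08e-11). Both encode prolyl hydroxylases that mark HIF-α subunits for degradation and are themselves known HIF targets. *Txnip*, whose protein limits glucose uptake, ranged from 11.1 to 12.4 FPKM under DMSO and from 11.3 to 12.7 FPKM under DADA, and its log2FC of 0.04 was not called (limma, adjusted p = 0.518). It is named outside the rule for genes, after its value was seen, since it acts on the transporters directly.

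**Figure D4:**
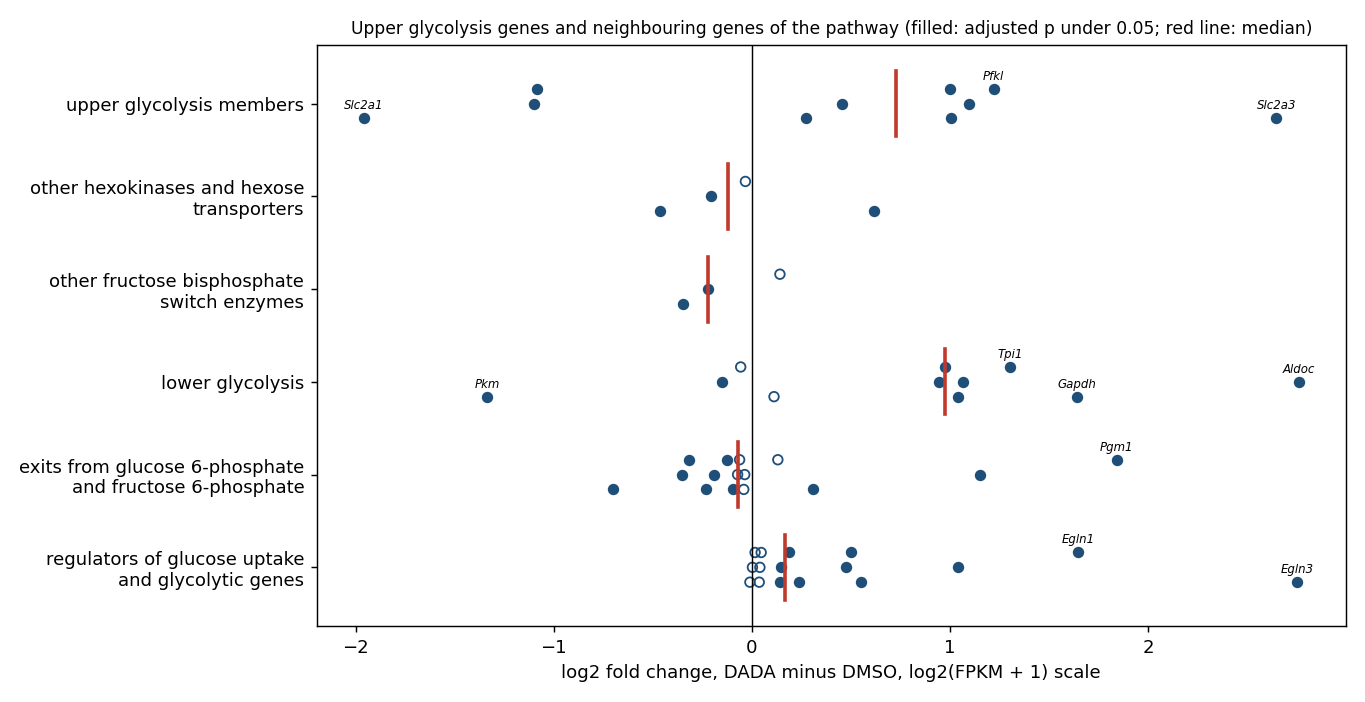
Log2 fold change, DADA minus DMSO, on the log2(FPKM + 1) scale (x axis) for the tested genes of each list, 1 point per gene, filled where the adjusted p was under 0.05, with the median in red. Upper and lower glycolysis both hold genes on either side of 0, with medians of 0.73 and 0.97, whereas the medians of the other lists lie between -0.22 and 0.17.

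By likeness over the 8 libraries, *Trim25*, *Samd9l* and *P4ha2* had the highest Pearson correlation with *Slc2a3* (0.9994, 0.9993 and 0.9992) among 8134 candidate genes averaging 5 FPKM or more, and *Csf2*, *Mcm2* and *Clspn* with *Slc2a1* (0.9996, 0.9994 and 0.9992). *P4ha2*, a collagen prolyl hydroxylase, went from 1.61 to 26.4 FPKM, and *Csf2*, the cytokine GM-CSF, from 83.1 to 16.4 FPKM. With 2 well separated groups such a correlation mostly repeats the group difference, and 430 genes reached over 0.99 with *Slc2a3* and 364 with *Slc2a1*.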

How the data were processed

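Bulk RNA-seq was analysed for 8 libraries, 4 with DMSO and 4 with DADA, grouped by their titles. The authors deposited FPKM values, 1 per row and library; per the labels, the submitters' processing notes name HISAT2 2.0.5 and StringTie 1.3.3 and the builds GRCm39 and GRCh38, without their roles. Of 22520 rows, 404 are transcripts named by an assembler. FPKM is relative to the library, so a shift in a few abundant transcripts moves the others. The labels and the methods name different library kits, and strandedness is not given.

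Values were analysed as log2(FPKM + 1) over the 10666 rows with at least 1 FPKM in at least 4 libraries, with limma 3.58.1 in R 4.3.3 (treatment as the only term, moderated variances with a trend on mean level, Benjamini-Hochberg adjustment over all rows tested, call at an adjusted p under 0.05). The fit was tested on simulated data in which 200 of 10666 genes were changed, far fewer than are called here. Of these 200, 178 were recovered, and 15 of 193 calls were false. An exact permutation test over the 70 assignments, two-sided, was added for single genes. Sums and shares of isozymes carry no test. Values of 1 listed gene and 1 marker list are not reported here. Depth was estimated from transcript lengths of 4431 single-transcript genes in GENCODE M21. Replicates differed by 1.32 to 1.97 times the counting noise at the estimated depth, and each was counted as 1 sample; repeat preparations of the same cells could differ as much. Genes and lists were chosen with earlier results of these data known. Named were all 10 genes and, from every list, the 2 called genes that rose most and the 2 that fell most. The 3 genes most correlated with the largest rise and fall were added. *Hk3*, *Hkdc1*, *Pfkfb2*, *Txnip*, *Aldoa*, *Tpi1*, *Pgk1*, *Pgam1* and *Eno1* were named outside this rule, after their values were seen. Alternatives were a pseudocount of 0.1, other filters and scalings, eBayes without trend, a replicate block, each library left out and no assembled transcripts. Figures used matplotlib 3.10.9. Coordinates are given only for RefSeq windows (GRCm38.p6), since the reference used here is of another build than those named.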

Additional observations from a re-analysis of the deposited data

Results flagged for a closer look

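Dixon's ratio, the distance of an extreme library from its nearest neighbour over the whole range, passed the critical value in 4 of 68 sets of 4 libraries. Chance alone flags about 1 in 20, or 3.4 here, and the sets share libraries. The transporter sum was 152 FPKM in DMSO 3, whereas the remaining 3 lay between 140.2 and 142 FPKM (ratio 0.891), and in the same library both *Slc2a1* and *Slc2a3* had their highest DMSO value. *Adpgk* reached 21.2 FPKM in DMSO 2 and 19.7 to 19.9 FPKM elsewhere in the group (ratio 0.864). *Aldoc* was at 19.2 FPKM in DADA 2, against 20.3 to 20.4 FPKM (ratio 0.863), and *Pgls* at 67.7 FPKM in DMSO 1, against 60.6 to 61.4 FPKM (ratio 0.887). Each gap was smaller than the difference between the groups.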

How the results depend on the processing

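Each of the 10 genes kept its direction and its call in every alternative that tested it, 169 values over 17 alternatives, with a highest adjusted p of 0.00712 (limma, *Pfkfb4* after quantile normalization). A mean of at least 5 FPKM left *Pfkfb4* untested, so that 6 genes were higher. The widest range was that of *Pfkfb4*, 0.33 to 0.60, followed by *Pfkm*, 0.22 to 0.32. *Gpi1* ranged from 0.987 to 1.04 and *Pfkp* from 0.989 to 1.04, so the count of genes at 1 or more moved with the setting. With the replicate block, 7 of the genes were higher and 3 lower, and 3251 and 3744 of all genes tested. The balance of calls over all genes, 3296 higher and 3768 lower as reported, turned with scaling as TPM (3602 and 3379) and without a filter (4007 and 3861). Same-numbered libraries did not deviate together (correlations of -0.12 to 0.0953, and 0 of 4 DMSO libraries correlated best with its own number). Such correlations cannot show whether libraries of the same number came from a common source, so pairing stays unknown. Among the other lists, a mean of at least 5 FPKM left 0 higher hexose transporters or glucose-phosphorylating genes and 1 lower gene of the fructose bisphosphate switch, because fewer genes were tested, and no filter gave 4 lower genes of the former list. Quantile normalization moved the share of *Pfkl* with DADA to 23.3% and that of *Pfkp* with DMSO to 74.5%; the cause was not tested. FPKM without counts limits what can be said of *Pfkfb4* and other low genes.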
